A study of Mus musculus with 30 samples.

Results

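The genes described here are those that build and assemble the machinery of oxidative phosphorylation, chosen by name from the count table of mouse embryonic stem cells (ESCs) that were being turned into neuromesodermal progenitors (NMPs), which build spinal cord and paraxial mesoderm as the body axis lengthens. Symbols beginning Nduf with a, b, c, s or v, Cox4 to Cox8, Uqcr or Atp5, the genes Sdha, Sdhb, Sdhc and Sdhd, and the protein-coding genes of the mitochondrial chromosome beginning mt-Nd, mt-Co, mt-Cytb or mt-Atp were taken, which matched 113 of 54134 rows. After 8 pseudogenes ending in -ps were dropped, 105 were left, and the 94 with a mean of at least 5 counts when a library is scaled to 1000000 (CPM) over the 30 libraries are called members. They comprised 86 genes of the nuclear genome and 8 of the mitochondrial genome. The rule used the mean level and no contrast. The highest gene below the limit was Cox6a2, at 0.760 CPM, and the lowest member was mt-Nd3, at 7.70 CPM. All 94 members passed the filter on low counts, so no member went untested.

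The libraries came from 10 groups with 3 replicates each. Bruce4 ESCs, either wildtype or Nr6a1-/-, were freed of feeder cells, were given FGF2 from day 0 and CHIR99021, an agonist of the Wnt pathway, from day 2. They were collected at d2, d2.5, d3 and d4, or at d4 after a last day with Gdf11 (d4G), a TGF-beta family ligand that promotes the switch from trunk to tail. The Nr6a1-/- cells were 1 clone with CRISPR/Cas9 deletions in exon 4 of each allele, so genotype and clone are the same split at every stage. Nothing in the labels says whether the replicates were separate cultures, so p-values measure the spread between these libraries, which may be technical.

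Oxidative phosphorylation passes electrons from NADH through complex I, or from succinate through complex II, to complex III and complex IV, and the proton gradient that this builds across the inner membrane drives ATP synthase, also called complex V. Complexes I, III, IV and V hold subunits of both genomes, so that transcripts made in the nucleus and in the mitochondrion meet in 1 assembly, whereas complex II is nuclear throughout. Pluripotent cells lean on glycolysis, and reliance on the respiratory chain commonly changes as they differentiate.

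Of the 86 nuclear members, 76 encode subunits: 37 of complex I, 4 of complex II, 8 of complex III, 12 of complex IV and 15 of ATP synthase, assigned by symbol. Ndufa4 is counted under complex I by its name, although its product is now placed in complex IV. The 10 others are not subunits of the mature complexes and comprise the complex I assembly factors Ndufaf1 to Ndufaf8, Cox7a2l, which joins complexes III and IV, and Atp5s. The 11 genes under the limit included isoforms of muscle, testis or hypoxic cells, namely Cox4i2, Cox6a2, Cox7b2, Cox8b, Cox8c and Ndufa4l2. The other 5 were mitochondrial. mt-Atp6, mt-Atp8 and mt-Nd4l had 0 counts in all 30 libraries, mt-Co2 had 1 and mt-Co3 had 6, and these 5 are therefore listed at or near 0 without being read as low. Windows of 72 bases, the length of the cDNA read, were compared with all annotated transcripts. They came from the whole transcript of mitochondrial genes, not its 3′ end alone, and from the last 500 bases of nuclear ones. For mt-Co2, mt-Co3, mt-Atp6 and mt-Nd4l, 98.7 to 99.9% of windows also occurred in another annotated gene, while for mt-Atp8 the share was 0%. The same share was 97.8% for mt-Nd3, 61.6% for mt-Nd4 and 41.2% for mt-Co1, 6.0% or less for mt-Nd2 and mt-Nd5, and 0% for mt-Nd1, mt-Nd6 and mt-Cytb. How reads with more than 1 match were counted is not stated, so the counts of mt-Nd3, mt-Nd4 and mt-Co1 are uncertain. In 19 of the 86 nuclear members 10% or more of windows were shared. Of members named below these were Atp5g2 (44.6%), Atp5o (38.0%), Uqcrb (33.3%), Cox5a (30.3%), Ndufb6 (28.8%), Ndufa12 (27.3%), Cox7c (26.7%) and Uqcrc2 (52.3%), whose counts are uncertain in the same way.

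Library totals ranged from 1570714 to 3688197 counts, with a median of 2366002. All 8 markers of NMPs and all 8 of epiblast were detected. Summed epiblast markers stood at 2576 to 2641 CPM in wildtype and 3461 to 3610 in Nr6a1-/- libraries at d2, and at 92.3 to 113 in the d4 Nr6a1-/- and all d4G libraries, whereas d4 wildtype ran from 91.6 to 724, the latter in replicate 2. Between genotypes, summed NMP markers were 769 to 813 CPM in wildtype and 1011 to 1205 in Nr6a1-/- libraries at d3. At d4G they were 410 to 447 against 325 to 374. These sums, in which the highest markers weigh most, thus differed between genotypes. Summed endoderm markers, 3 of 4 detected, were 36.1 to 45.3 CPM against 2.54 to 8.57 at d4 and 45.6 to 62.0 against 2.85 to 6.60 at d4G, and 6 stress genes summed to 330 to 393 CPM in wildtype d4 and 560 to 661 in d4G. Summed neural markers, all 4 detected, were 45.9 to 53.3 CPM in wildtype against 24.5 to 30.9 in Nr6a1-/- libraries at d2 and 16.5 to 22.2 against 2.35 to 5.07 at d4. The part of these markers in the results was not tested. All 8 fibroblast markers were detected, summing to 34.6 to 168 CPM, lowest at d2. The counts of Nr6a1 do not check the genotype label, since the reads come from the 3′ end and the deletions are internal. The Gdf11 label could be checked on Hoxc10, a posterior Hox gene, which stood at 0.43 to 5.08 CPM in the 6 libraries of d4 and at 85.6 to 288 in the 6 of d4G. Among the members, 1 group stood apart. In d4 Nr6a1-/- replicate 1, 61 of the 86 nuclear members were highest of the 3 replicates and in replicate 3, 67 were lowest, and the median SD of log2 CPM in this group was 0.159, against 0.062 in d4 wildtype. In d3 Nr6a1-/- replicate 3, 72 were lowest, with a median SD of 0.109. Replicate 1 of d4 Nr6a1-/- differed from replicates 2 and 3 by a chi-square per degree of freedom of 6.38 and 7.59, against 1.49 to 5.25 in all other replicate pairs. The index tags of d4 Nr6a1-/- replicates 2 and 3 are those of d3 Nr6a1-/-, whereas those of the other d4 libraries recur in d4G, so that the d4 and d4G libraries were not all in 1 pool. Stage and pool cannot be told apart, nor can Gdf11 and pool between d4 and d4G. Most counts of calls that rest on d4 Nr6a1-/- cells are given with and without replicate 1, as are values of most members named in those comparisons. For fits that leave out a library, the share of all tested genes called is not given. Counts of members from those fits therefore have no such share beside them.

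Promoters of 5 members are shown first, because nuclear members share binding sites for a small set of factors and because Nr6a1 itself binds an extended single-core site. Promoters (250 bases before and 50 after the start, RefSeq, GRCm38.p6) were matched for 77 of the 86 nuclear members. The letters CGCATGCG, the core of the NRF1 site, occurred on either strand in 11 of the 77 (14.3%), against 4.0% of the promoters of tested genes and 1.87% of all promoters. CCGGAAG, read by ETS factors such as GABPA, occurred in 23.4%, against 18.2% of tested and 8.86% of all promoters. AAGATGGCG, read by YY1, occurred in 10.4%, against 3.19% and 1.40%. TCAAGGTCA, the single-core site bound by Nr6a1 and by the ERR receptors, occurred in 2 of 77 (2.60%), Atp5g3 and Sdhd, against 0.222% and 0.423%. None of the motifs contains another. Capitals mark the motif, and a site on the other strand appears as its reverse complement (TGACCTTGA for the single-core site, CTTCCGG for ETS).

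Ndufaf4, chr4:24897833-24898132, plus strand, NRF1 site in capitals: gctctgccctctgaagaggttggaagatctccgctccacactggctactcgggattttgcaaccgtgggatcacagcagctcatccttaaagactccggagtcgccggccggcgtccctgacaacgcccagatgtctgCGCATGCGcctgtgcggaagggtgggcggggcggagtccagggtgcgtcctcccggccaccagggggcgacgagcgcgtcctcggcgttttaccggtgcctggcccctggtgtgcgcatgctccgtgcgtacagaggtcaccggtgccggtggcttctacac

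Atp5g3, chr2:73911277-73911576, minus strand, single-core site in capitals: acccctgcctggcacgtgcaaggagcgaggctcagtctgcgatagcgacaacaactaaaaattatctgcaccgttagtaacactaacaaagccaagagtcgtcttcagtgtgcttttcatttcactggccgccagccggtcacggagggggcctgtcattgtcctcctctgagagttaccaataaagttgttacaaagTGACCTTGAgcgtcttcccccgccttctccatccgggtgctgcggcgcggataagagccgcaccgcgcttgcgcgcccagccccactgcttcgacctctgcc

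Sdhd, chr9:50603800-50604099, minus strand, ETS site and single-core site in capitals: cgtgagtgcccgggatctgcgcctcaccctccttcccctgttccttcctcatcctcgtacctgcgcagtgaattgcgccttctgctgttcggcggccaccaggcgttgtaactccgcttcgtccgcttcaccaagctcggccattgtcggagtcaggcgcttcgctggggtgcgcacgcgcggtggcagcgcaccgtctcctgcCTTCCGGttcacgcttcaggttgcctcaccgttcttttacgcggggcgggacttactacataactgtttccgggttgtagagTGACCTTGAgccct

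Ndufs4, chr13:114388045-114388344, minus strand, YY1 site in capitals: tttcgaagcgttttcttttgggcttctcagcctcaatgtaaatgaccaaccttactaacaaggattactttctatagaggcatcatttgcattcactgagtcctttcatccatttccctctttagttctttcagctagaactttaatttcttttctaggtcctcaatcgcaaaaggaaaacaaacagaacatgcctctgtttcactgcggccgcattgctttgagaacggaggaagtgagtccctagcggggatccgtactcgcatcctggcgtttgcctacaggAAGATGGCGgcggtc

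Cox6a1, chr5:115348909-115349208, minus strand, NRF1 and ETS sites in capitals: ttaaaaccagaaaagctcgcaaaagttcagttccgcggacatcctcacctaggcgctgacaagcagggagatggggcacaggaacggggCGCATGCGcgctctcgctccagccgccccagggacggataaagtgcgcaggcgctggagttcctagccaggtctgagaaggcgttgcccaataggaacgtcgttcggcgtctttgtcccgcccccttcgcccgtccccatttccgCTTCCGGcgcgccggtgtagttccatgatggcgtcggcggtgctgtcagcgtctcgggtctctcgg

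These members recur below. Ndufaf4 and Ndufs4 were among those that differed most between genotypes. With all libraries fitted, Atp5g3 and Sdhd, the carriers of the single-core site, were called between genotypes at no stage, and Cox6a1 at d4G alone. Atp5g3 and Sdhd fell with Gdf11 in wildtype cells. Without d4 Nr6a1-/- replicate 1, both fell from d3 to d4 in Nr6a1-/- cells (-0.46 and -0.55 on the log2 scale). In wildtype cells the same step was 0.11 and -0.07, and neither was called. Their difference between genotypes at d4 without that replicate is not given here. A match is a run of letters and says nothing of whether the factor was bound.

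The shares of the counts that nuclear and mitochondrial members took moved at several steps. In wildtype cells from d2 to d3 the mean nuclear share went from 3.17 to 3.40% and the mitochondrial share from 1.18 to 1.07%, and from d3 to d4 the mitochondrial share rose to 1.28%, each with no overlap of libraries. Across the 24 libraries before d4G, nuclear members held 3.03 to 3.67% of a library's counts and mitochondrial members 1.04 to 1.41%. With Gdf11 the nuclear share of wildtype cells fell, from 3.46, 3.42 and 3.43% in the 3 libraries of d4 to 3.12, 3.03 and 2.99% in those of d4G. All 3 libraries with Gdf11 lay below all 3 without. The mitochondrial share moved the other way, from 1.31, 1.28 and 1.25% at d4 to 1.58, 1.497 and 1.46% at d4G. The mitochondrial share of Nr6a1-/- cells was 1.23, 1.41 and 1.29% at d4 and 1.58, 1.66 and 1.77% at d4G, again with no overlap. The nuclear share of Nr6a1-/- cells was 3.62, 3.45 and 3.17% at d4 and 3.16, 3.196 and 3.31% at d4G, and here the groups overlapped. In bulk libraries, fewer cells of a type and less RNA per cell cannot be told apart. Between d4 and d4G, Gdf11 and pool cannot be told apart either.

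Counts on mitochondrial members per count on nuclear members summarise the pair. This ratio was 0.372 ± 0.010 in wildtype d2 (SD, n = 3), 0.314 ± 0.011 at d3, 0.372 ± 0.007 at d4 and 0.496 ± 0.010 at d4G. It fell between d2 and d3, rose between d3 and d4 and rose again with Gdf11, with no overlap of libraries at any of these 3 steps. In Nr6a1-/- cells it was 0.360 ± 0.004 at d2, 0.335 ± 0.009 at d3, 0.385 ± 0.040 at d4 and 0.518 ± 0.017 at d4G. Between the genotypes the ratio ranges overlapped at d3 (0.304 to 0.326 against 0.325 to 0.342) and at d4G (0.487 to 0.506 against 0.501 to 0.534).

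One gene carried most of the rise with Gdf11. Without mt-Cytb, the mitochondrial share of wildtype cells was 0.826, 0.806 and 0.782% at d4 and 0.811, 0.798 and 0.764% at d4G, so that the groups overlapped. For Nr6a1-/- cells it was 0.776, 0.741 and 0.733% at d4 and 0.825, 0.872 and 0.926% at d4G, and all 3 Gdf11 libraries remained higher. The ratio without mt-Cytb was 0.234 ± 0.006 at d4 and 0.259 ± 0.004 at d4G in wildtype, and 0.220 ± 0.009 and 0.271 ± 0.009 in Nr6a1-/- cells, still with no overlap.

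**Figure D1:**
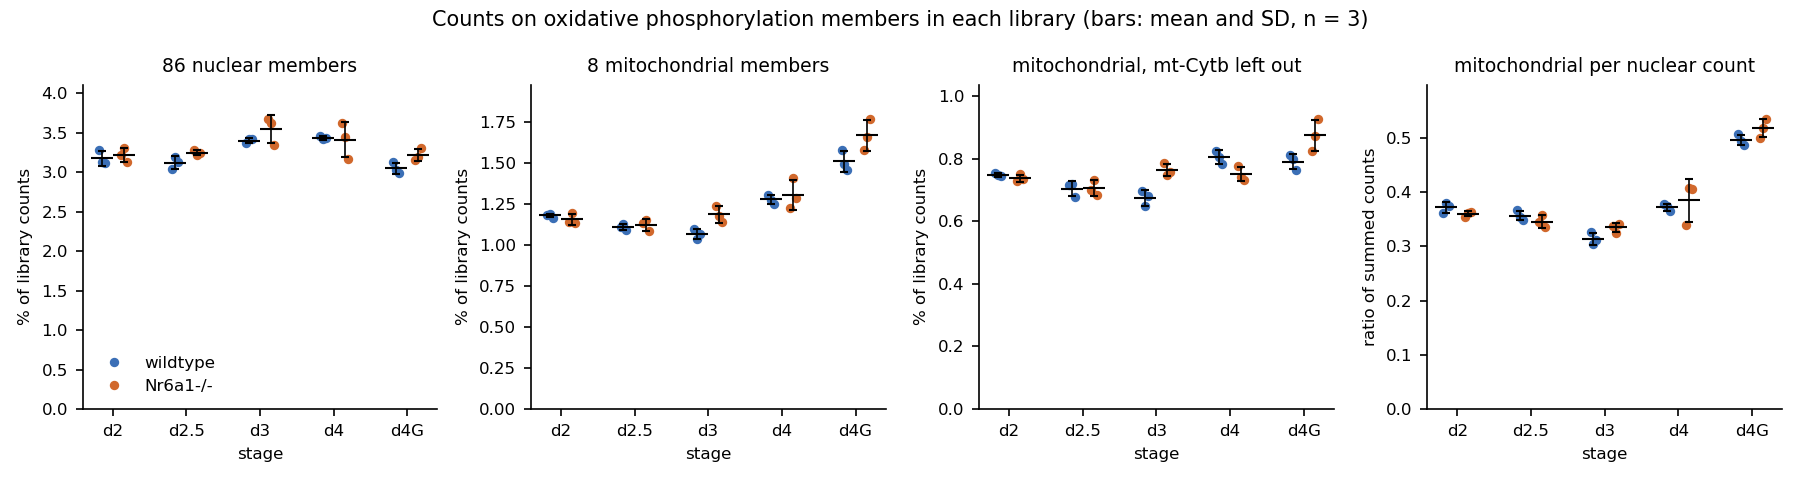
Percentage of each library's counts on the 86 nuclear members, on the 8 mitochondrial members and on those 8 without mt-Cytb, and mitochondrial counts per nuclear count, by stage and genotype (points: libraries; bars: mean and SD, n = 3). The ratio stood at 0.487 to 0.534 in the 6 libraries of d4G and at no more than 0.408 in the other 24.

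The 8 mitochondrial members are all made from the same chromosome, yet did not move as a block. With Gdf11 their median log2 fold change in wildtype cells was -0.18, although their summed share rose. There mt-Cytb was called higher and mt-Nd1, mt-Nd2 and mt-Nd3 lower. In Nr6a1-/- cells the median was 0.09, and 0.25 without d4 Nr6a1-/- replicate 1. mt-Cytb, the 1 subunit of complex III that the mitochondrion encodes, stood at 4970, 4757 and 4815 CPM (scaled by TMM factors, as are all CPM values that follow) in wildtype d4 and at 7407, 6670 and 6678 in d4G. It rose with Gdf11 in wildtype (log2 fold change 0.51, SE 0.079, edgeR FDR 4.94e-06). Nr6a1-/- cells had 4963, 6726 and 5573 CPM at d4 and 7594, 7802 and 8141 at d4G (log2 fold change 0.45, edgeR FDR 5.73e-05; 0.35, FDR 5.78e-04 without d4 Nr6a1-/- replicate 1). Replicate 1 of d4 Nr6a1-/- lay at the wildtype level and the other replicates above it. mt-Nd1, a core subunit of complex I, stood at 4337, 4171 and 4166 CPM in wildtype d4 and at 3794, 3697 and 3666 in d4G, a small fall (-0.18, edgeR FDR 0.027) that was lost without any 1 of the 6 libraries. mt-Nd4, another subunit of complex I, was at 2106, 2037 and 1922 CPM at d4 and 2429, 2366 and 2695 at d4G in Nr6a1-/- cells, where it rose (0.30, edgeR FDR 5.3e-04; 0.34 without d4 Nr6a1-/- replicate 1), and at 1846, 1937 and 1913 against 2094, 2122 and 2102 in wildtype cells, where the groups did not overlap but the gene was not called.

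mt-Nd3, also of complex I, was the lowest member and moved most. Its counts were 45, 49 and 43 in wildtype d4 and 5, 7 and 5 in d4G, a fall of 2.60 on the log2 scale (edgeR FDR 2.78e-07). Nr6a1-/- cells had 16, 4 and 3 counts at d4 and 3, 6 and 5 at d4G. The genotypes differed at d4 (log2 fold change -2.12, SE 0.321, edgeR FDR 4.37e-06; -3.22 without d4 Nr6a1-/- replicate 1). As 97.8% of the windows of mt-Nd3 occur also in Gm28438, these counts may be split with that gene. mt-Nd2 fell with Gdf11 in wildtype (-0.34, edgeR FDR 0.0137), a call lost without d4 wildtype replicate 1 or without d4G wildtype replicate 2 or 3. mt-Co1, the catalytic subunit of complex IV, fell in Nr6a1-/- cells (412, 403 and 498 CPM at d4 against 331, 299 and 352 at d4G; -0.42, edgeR FDR 0.0158; -0.46 without d4 Nr6a1-/- replicate 1), a call lost without d4 Nr6a1-/- replicate 3 or d4G Nr6a1-/- replicate 2. mt-Nd5 and mt-Nd6 were called in neither genotype.

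**Figure D2:**
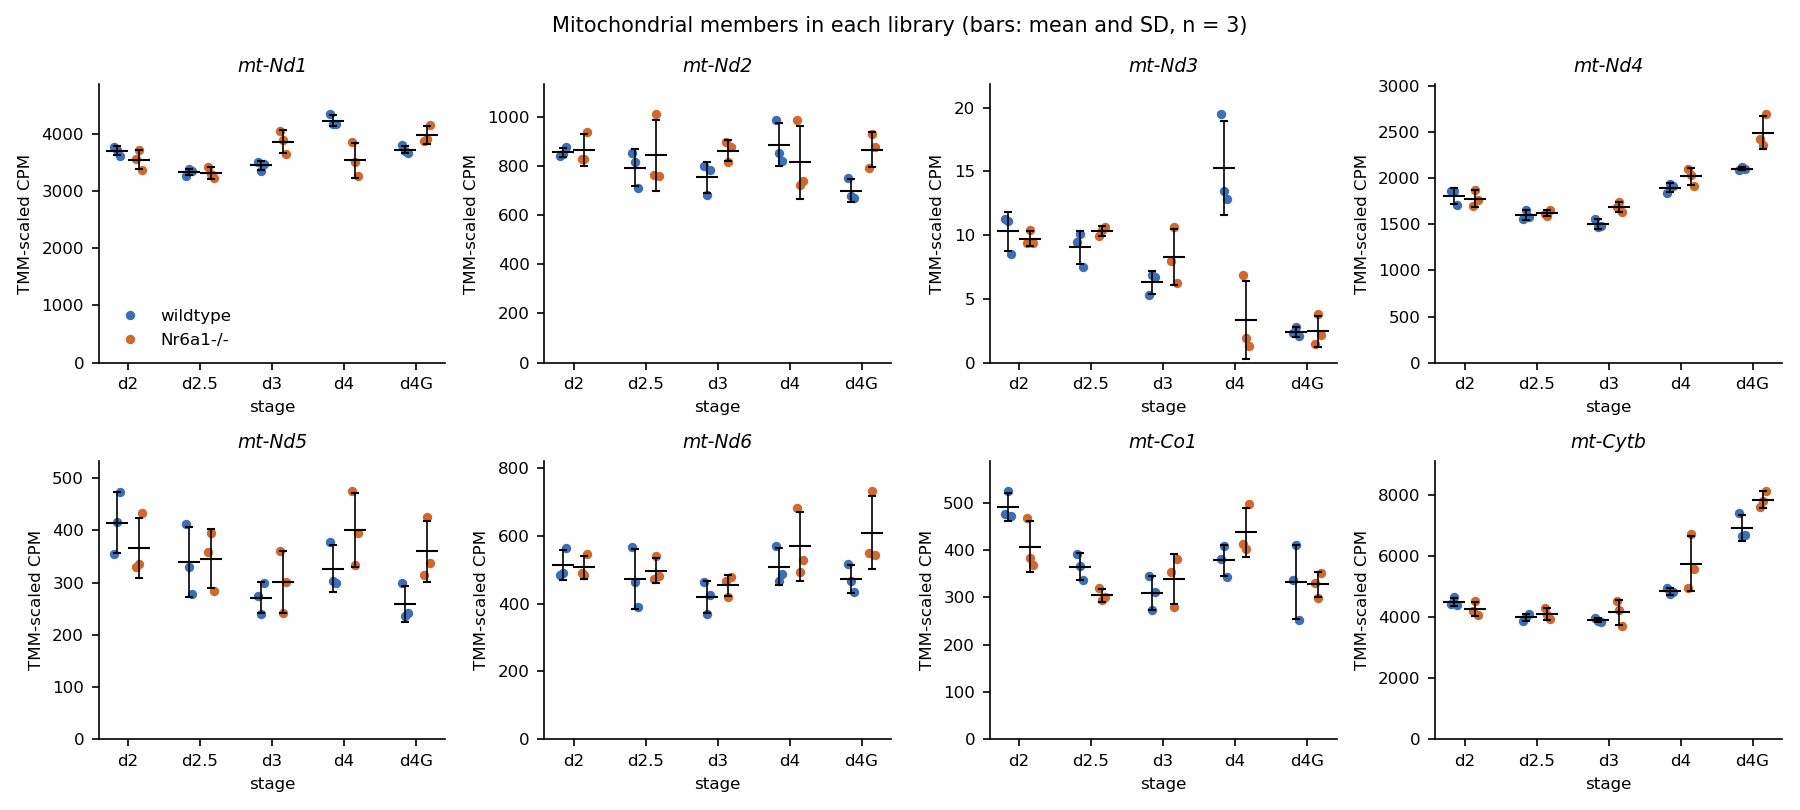
Level of each mitochondrial member in TMM-scaled CPM on axes that start at 0, by stage and genotype (points: libraries; bars: mean and SD, n = 3). mt-Cytb rose with Gdf11 in both genotypes, whereas mt-Nd3 stood at 12.8 to 19.5 CPM in wildtype d4 and at 6.88 or less in d4 Nr6a1-/- and in all of d4G.

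Of the comparisons made, Gdf11 in wildtype cells gave the most member calls, most of them nuclear falls. In wildtype cells 48 of the 86 nuclear members fell with Gdf11 (55.8%) and 3 rose, against 14.5% of all 12149 tested genes that fell and 14.3% that rose. Their median log2 fold change was -0.25, against 0.02 over all tested genes. Falls were called for 15 of 37 members of complex I, 2 of 4 of complex II, 6 of 8 of complex III, 11 of 12 of complex IV, 9 of 15 of ATP synthase and 5 of the 10 that are not subunits. Leaving out any 1 library gave 41 to 49 calls over both genomes in place of 55, with 45 nuclear falls without d4 wildtype replicate 2. The 91 members off chromosome 8 held 50 of the 51 falls. The index tags of d4 wildtype recur in d4G wildtype, so Gdf11 and pool cannot be told apart in this comparison.

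Complex III and complex IV had the lowest medians, at -0.41 and -0.44. Uqcrh, the hinge protein of complex III, stood at 836, 801 and 836 CPM in wildtype d4 and at 536, 543 and 515 in d4G (log2 fold change -0.63, SE 0.083, edgeR FDR 2.92e-07). Uqcrb, another small subunit of complex III, went from 381, 366 and 361 to 272, 241 and 257 CPM (-0.52, edgeR FDR 3.76e-06). Neither gene's groups overlapped. Uqcrc2, a core subunit, went from 45.9, 42.0 and 53.0 to 26.8, 24.2 and 26.8 CPM (-0.86, edgeR FDR 1.08e-05), with 52.3% of its windows shared with Pdzd9. In complex IV, Cox7c went from 1036, 1117 and 1014 to 721, 662 and 666 CPM (-0.63, edgeR FDR 5.84e-07), and Cox7a2 from 964, 962 and 1047 to 627, 622 and 681 (-0.62, edgeR FDR 7.32e-06). Cox7b (-0.64, edgeR FDR 1.75e-04) and the supercomplex factor Cox7a2l (-0.63, edgeR FDR 1.88e-04) fell to a like extent, and each held under all 14 alternative settings tried.

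Among the other complexes, Ndufb6, a membrane-arm subunit of complex I, was at 113, 94.9 and 95.4 CPM in wildtype d4 and 64.2, 58.4 and 50.2 in d4G (-0.81, SE 0.123, edgeR FDR 4.08e-06), with 28.8% of its windows shared with Smim27. Ndufb11, from the same arm, fell by 0.61 (edgeR FDR 6.67e-06). Atp5g3, which encodes the c subunit of the ATP synthase ring and carries the single-core site shown above, went from 1177, 1135 and 1133 CPM to 751, 822 and 751 (-0.57, edgeR FDR 6.26e-06). Its paralogue Atp5g2 was at 19.9, 20.8 and 24.1 against 17.1, 11.7 and 10.9 CPM (-0.73, edgeR FDR 0.00536). In complex II, Sdhd (-0.38, edgeR FDR 0.00286) and Sdhb (-0.34, edgeR FDR 0.00449) fell, Sdhc was not called, and the flavoprotein Sdha was at 179, 165 and 169 against 198, 202 and 204 CPM (0.23, edgeR FDR 0.0312). The Sdha call was lost without d4 wildtype replicate 2 or 3, or any 1 of the d4G wildtype libraries. The other 2 rises were Ndufa12 (0.26, edgeR FDR 0.00532; 27.3% of windows shared with Gm15920) and Ndufa11 (0.21, edgeR FDR 0.0497), the latter lost without d4 wildtype replicate 1 or 2 or any 1 of the d4G wildtype libraries.

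In Nr6a1-/- cells 27 of 86 nuclear members fell with Gdf11 (31.4%) and 1 rose, against 9.59% and 8.45% of all tested genes. The count rested on 1 library: without d4 Nr6a1-/- replicate 1, 11 fell and 3 rose, and the median moved from -0.15 to -0.07. With all libraries fitted, the members lower in both genotypes numbered 24, all nuclear, which is 24 of 51 in wildtype and 24 of 28 in Nr6a1-/- cells. This overlap is given neither over all tested genes nor without d4 Nr6a1-/- replicate 1, a fit in which 11 nuclear members fell. The shares of all tested genes called in that fit are not given either. mt-Cytb rose in both genotypes. Ndufa12 rose in wildtype and fell in Nr6a1-/- cells (-0.27, edgeR FDR 0.00531; -0.28 without d4 Nr6a1-/- replicate 1), a fall lost without d4 Nr6a1-/- replicate 2 or d4G Nr6a1-/- replicate 3. Ndufs4, an accessory subunit of complex I needed for its stability, was at 350, 290 and 291 CPM at d4 and 196, 197 and 214 at d4G (-0.62, SE 0.080, edgeR FDR 2.53e-07). Ndufb4 was at 165, 164 and 142 against 95.5, 92.9 and 117 CPM (-0.62, edgeR FDR 2.01e-05). Both falls held without replicate 1 (-0.52 and -0.58, edgeR FDR 6.11e-06 and 2.94e-04). Sdhc was also lower (-0.28, edgeR FDR 0.045), but without d4 Nr6a1-/- replicate 1 or 2, or d4G replicate 1 or 2, was not called. The 1 rise was Ndufs8, an iron-sulphur subunit of complex I (0.32, edgeR FDR 0.00395; 0.34 without that replicate).

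**Figure D3:**
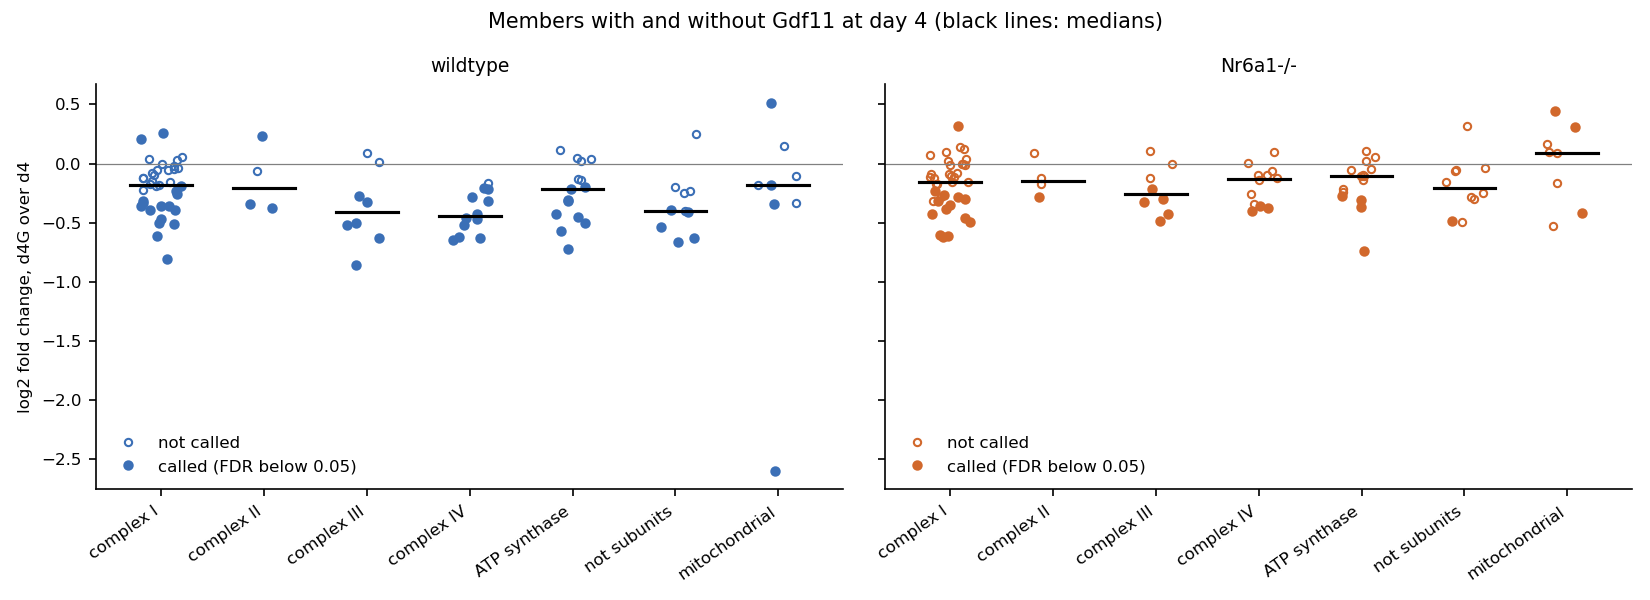
Log2 fold change of each member, d4G over d4, in wildtype and Nr6a1-/- cells, by complex, with the mitochondrial members apart (filled points: FDR below 0.05; lines: medians). In wildtype cells 11 of 12 members of complex IV and 6 of 8 of complex III were called lower, against 3 of 12 and 5 of 8 in Nr6a1-/- cells, where 1 library of d4 decides many of the calls.

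Whether the Gdf11 response itself differed between genotypes was tested as an interaction, which 4 of 94 members passed, against 2.66% of all tested genes. Ndufa12 differed by -0.52 (edgeR FDR 0.00104), mt-Nd1 by 0.35 (edgeR FDR 0.0212), Cox6b1, which couples the dimer of complex IV, by 0.46 (edgeR FDR 0.0403) and the assembly factor Ndufaf4 by 0.50 (edgeR FDR 0.0353). Cox6b1 was at 799, 699 and 737 CPM in wildtype d4 and 540, 553 and 532 in d4G, and at 813, 578 and 533 and then 632, 644 and 651 in Nr6a1-/- cells. Its call was lost without any 1 of 10 of the 12 libraries, that of Ndufaf4 without any 1 of 8 and that of mt-Nd1 without any 1 of 5, while that of Ndufa12 held without each. Without d4 Nr6a1-/- replicate 1, 22 members passed, 18 nuclear ones with a less negative response in Nr6a1-/- cells, 1 nuclear in the other direction and 3 mitochondrial, and the values of the 4 were -0.53 for Ndufa12, 0.43 for mt-Nd1, 0.68 for Cox6b1 and 0.56 for Ndufaf4. Without d4 wildtype replicate 2, 3 passed. The share of all tested genes that passed in either of these fits is not given here, so their counts cannot be set against it.

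Between the genotypes, the difference that recurred at every stage lay on chromosome 8, which holds 3 members. Cox4i1 (chr8:120668222-120674207, plus strand), the ubiquitous isoform of complex IV subunit 4, stood at 1439, 1373 and 1348 CPM in wildtype d2 and at 1084, 1102 and 1015 in Nr6a1-/- d2. At d3 it stood at 1809, 1743 and 1755 against 1200, 1238 and 1076, and at d4G at 1533, 1480 and 1554 against 1258, 1216 and 1263. The groups did not overlap at any of the 5 stages, and the gene was lower in Nr6a1-/- cells at all of them, by 0.38, 0.51, 0.59, 0.60 and 0.29 on the log2 scale (edgeR FDR 0.00393, 8.43e-05, 3.02e-06, 7.25e-07 and 0.0222). The d4G call was lost without d4G wildtype replicate 1 or 3, or any 1 of the d4G Nr6a1-/- libraries. The d4 value was -0.78 without d4 Nr6a1-/- replicate 1.

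Ndufa13 (chr8:69894180-69902558, minus strand) and Ndufb7 (chr8:83566671-83571626, plus strand), both accessory subunits of complex I, followed. Ndufa13 was at 634, 694 and 621 CPM in wildtype d2 and 473, 526 and 472 in Nr6a1-/- d2, and was lower at d2, d2.5 and d3 (-0.41, -0.28 and -0.31, edgeR FDR 4.38e-04, 0.0137 and 0.00427). Its d2.5 call was lost without d2.5 wildtype replicate 2 or 3, or d2.5 Nr6a1-/- replicate 2 or 3. Ndufb7 was at 484, 505 and 441 against 362, 400 and 367 CPM at d2, and was lower at d2, d2.5, d3 and d4 (-0.34, -0.33, -0.30 and -0.22, edgeR FDR 0.00223, 0.00238, 0.00359 and 0.0235). Its d4 call was lost without d4 wildtype replicate 1 or 3, or d4 Nr6a1-/- replicate 3. The rest of the chromosome moved with them. Of 655 tested genes of chromosome 8, 151, 183, 199, 194 and 158 were lower in Nr6a1-/- cells at the 5 stages in turn, with medians of -0.38, -0.38, -0.37, -0.29 and -0.31, and 73.6 to 88.7% lay below 0. The part of the chromosome in these 3 calls was not tested, and clone and genotype cannot be told apart.

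At d2 these 3 were the members called, all lower, against 1.35% of all tested genes that were higher and 2.72% lower. At d2.5, 3 were higher and 3 lower, against 2.86% and 3.59%. At d3, 3 were higher and 4 lower, against 4.49% and 6.29%. At d4, 13 were higher and 8 lower, against 9.72% and 9.17%, and at d4G, 10 were higher and 1 lower, against 3.28% and 4.63%. Median log2 fold changes of the nuclear members lay between 0.01 and 0.13 at the 5 stages, those of the mitochondrial members between -0.06 and 0.21.

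**Figure D4:**
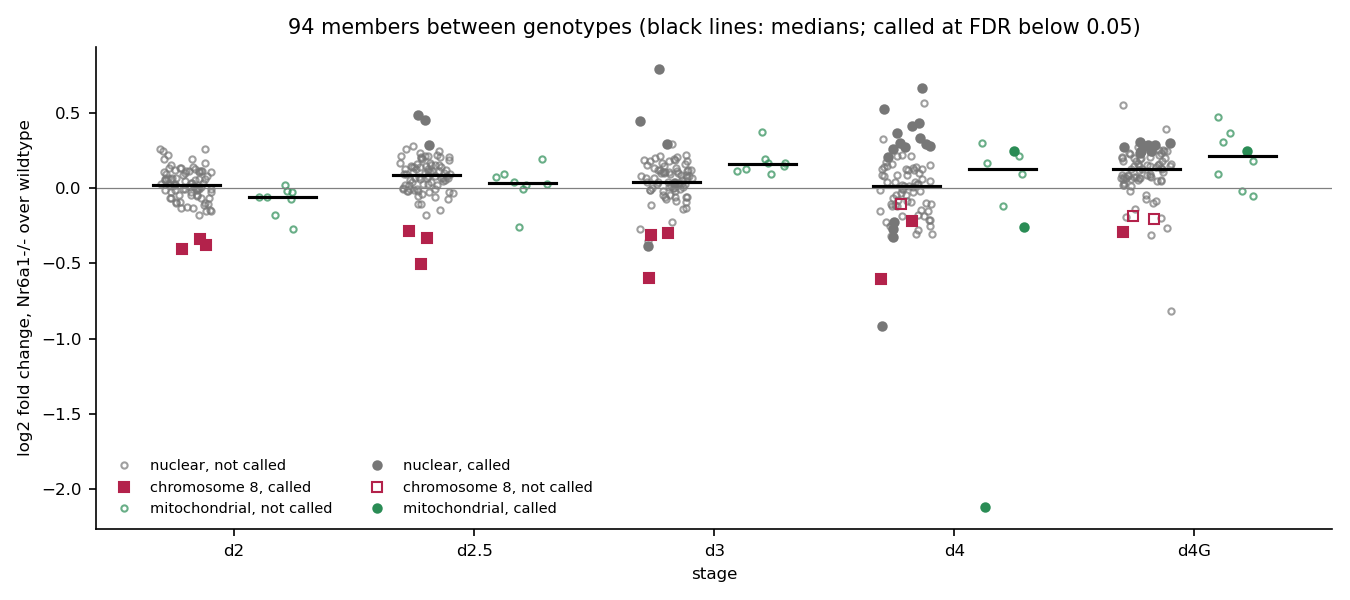
Log2 fold change of each member, Nr6a1-/- over wildtype, at each stage, with nuclear and mitochondrial members side by side (filled symbols: FDR below 0.05; squares: the 3 members on chromosome 8; lines: medians). The squares lay below 0 at every stage and comprised all 3 calls at d2.

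The largest rise before d4 was that of Ndufaf4 (chr4:24898083-24905001, plus strand), an assembly factor of complex I. It stood at 125, 145 and 115 CPM in wildtype d2.5 against 171, 164 and 191 in Nr6a1-/- cells (log2 fold change 0.45, edgeR FDR 0.00224). At d3 it stood at 133, 144 and 144 against 245, 259 and 225 CPM (0.79, SE 0.094, edgeR FDR 1.23e-07). By d4 the order had turned, with 173, 177 and 176 CPM in wildtype and 157, 156 and 129 in Nr6a1-/- cells, where the difference was not called. From d2 to d3 Ndufaf4 rose by 0.30 in wildtype (edgeR FDR 0.0148, lost without d2 wildtype replicate 1 or 2) and by 0.83 in Nr6a1-/- cells (edgeR FDR 4.89e-09). From d3 to d4 it rose by 0.32 in wildtype (edgeR FDR 0.0131, lost without d3 wildtype replicate 1) and fell by 0.72 in Nr6a1-/- cells (edgeR FDR 1.76e-07; -0.78 without d4 Nr6a1-/- replicate 1). The difference between these changes was -1.04 (SE 0.133, edgeR FDR 1.33e-06) and passed under all 20 alternative settings, at -1.11 without that replicate.

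**Figure D5:**
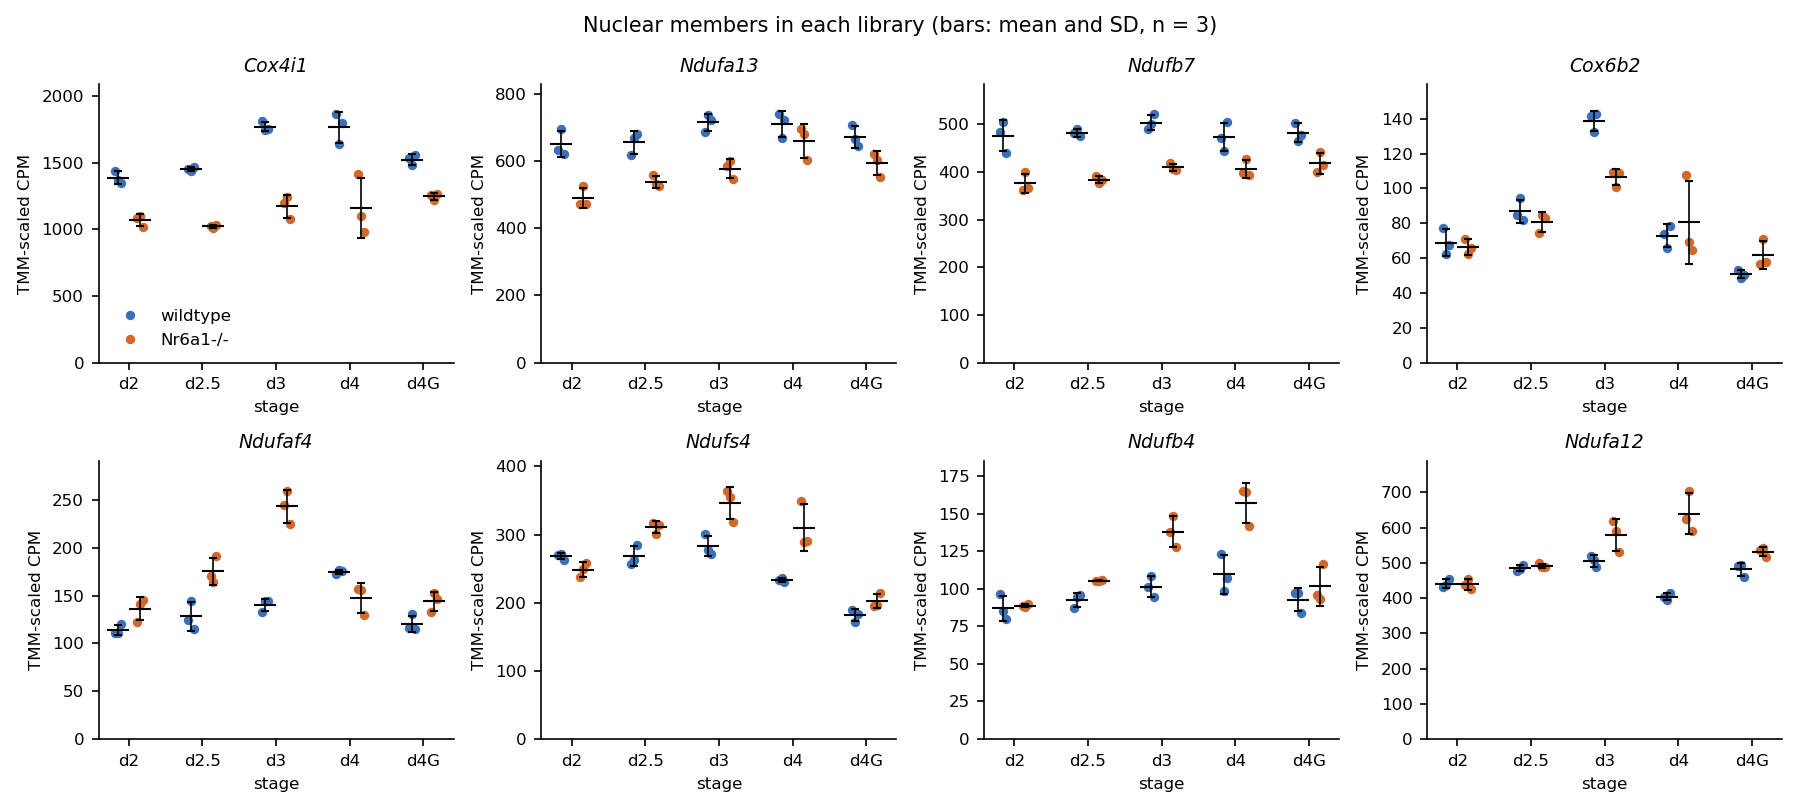
Level of 8 nuclear members in TMM-scaled CPM on axes that start at 0, by stage and genotype (points: libraries; bars: mean and SD, n = 3). Cox4i1, Ndufa13 and Ndufb7 were lower in Nr6a1-/- cells, and Ndufaf4 peaked at 225 to 259 CPM in Nr6a1-/- d3.

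Of the 37 nuclear subunits of complex I, Nr6a1-/- cells had 2 at higher and 2 at lower levels at d3, and 4 at higher and 2 at lower levels at d4. Over all tested genes, 4.49% were higher and 6.29% lower at d3, and 9.72% and 9.17% at d4. The count of lower subunits at d4 is not given without d4 Nr6a1-/- replicate 1. The 4 higher at d4 included both of those higher at d3. Ndufs4 was at 300, 278 and 272 CPM in wildtype d3 and 364, 355 and 319 in Nr6a1-/- d3 (0.29, edgeR FDR 0.0113), and at 234, 236 and 231 against 350, 290 and 291 at d4 (0.41, edgeR FDR 1.62e-04). The groups did not overlap at either stage, but the d3 call was lost without d3 wildtype replicate 2 or 3, or d3 Nr6a1-/- replicate 1. Ndufb4 was at 101, 109 and 94.5 against 138, 148 and 128 CPM at d3 (0.44, edgeR FDR 0.00278), and at 123.3, 98.2 and 107 against 165, 164 and 142 at d4 (0.53, edgeR FDR 1.22e-04). Ndufa12 was at 402, 395 and 415 against 625, 705 and 590 CPM at d4, the highest rise in that comparison (0.66, SE 0.070, edgeR FDR 2.62e-09). Ndufc1 also rose at d4 (0.43, edgeR FDR 2.42e-04). All 4 kept their d4 calls without d4 Nr6a1-/- replicate 1, at 0.30 for Ndufs4, 0.47 for Ndufb4, 0.66 for Ndufa12 and 0.38 for Ndufc1. At d2.5, the assembly factor Ndufaf6 (0.49, edgeR FDR 0.0148) and Uqcrh (0.29, edgeR FDR 0.0329) were higher, the former lost without d2.5 wildtype replicate 2 or Nr6a1-/- replicate 3 and the latter without any 1 of the 6 libraries.

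ATP synthase and complex II contributed further d4 calls. Atp5o, which encodes the stalk protein OSCP, was at 645, 663 and 631 CPM in wildtype d4 and 815, 845 and 782 in Nr6a1-/- d4 (0.33, SE 0.062, edgeR FDR 1.2e-04), and at 698, 634 and 676 against 828, 854 and 798 at d4G (0.30, edgeR FDR 8.67e-04). The gamma subunit gene Atp5c1 and the epsilon subunit gene Atp5e were also higher at both stages (0.30 and 0.29 at each). The Atp5c1 and Atp5e calls at d4 were lost without d4 Nr6a1-/- replicate 1, and that of Atp5e also without d4 wildtype replicate 2 or 3. Without that Nr6a1-/- replicate the d4 value was 0.32 for Atp5o, 0.17 for Atp5c1 and for Atp5e, 0.40 for Sdha and 0.23 for Sdhc. Sdha was at 179, 165 and 169 against 205, 228 and 227 CPM at d4 (0.36, edgeR FDR 0.00149). Sdhc was at 94.8, 86.4 and 90.0 against 115, 111 and 102 CPM (0.28, edgeR FDR 0.0373), a call lost without d4 wildtype replicate 2 or 3, or d4 Nr6a1-/- replicate 1 or 2. With all libraries fitted, Sdhb and Sdhd were called at no stage between genotypes. The highest calls at d4G were all small, at 0.24 to 0.30, and the total over both genomes fell from 11 to between 1 and 7 when any 1 of the 6 libraries was left out.

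Falls off chromosome 8 at d4 comprised Cox7a1 (-0.92, edgeR FDR 0.046), Cox5a (-0.33, edgeR FDR 0.00414), Ndufaf2 (-0.27, edgeR FDR 0.0426), Ndufs8 (-0.23, edgeR FDR 0.0383), mt-Nd1 (-0.26, edgeR FDR 0.00324) and mt-Nd3. The Ndufaf2 and Ndufs8 calls were each lost without d4 wildtype replicate 1 or 3, or d4 Nr6a1-/- replicate 2 or 3. Without d4 Nr6a1-/- replicate 1 the values were -1.28 for Cox7a1, -0.44 for Cox5a, -0.42 for Ndufaf2, -0.26 for Ndufs8 and -0.34 for mt-Nd1, and mt-Nd2 was called too (-0.29, edgeR FDR 0.0329). Cox7a1, the isoform of heart and skeletal muscle, was low, at 10.4, 9.32 and 8.34 CPM in wildtype and 6.88, 5.29 and 2.54 in Nr6a1-/- cells, and its call was lost without any 1 of the d4 wildtype libraries or d4 Nr6a1-/- replicate 2 or 3. Cox5a, next to the catalytic core of complex IV, was at 149, 144 and 162 against 135, 114 and 113 CPM. mt-Nd1 was at 4337, 4171 and 4166 against 3858, 3496 and 3252 CPM, with no overlap, while mt-Cytb was the mitochondrial rise (0.25, edgeR FDR 0.0244, lost without d4 wildtype replicate 2 or 3, or d4 Nr6a1-/- replicate 2, and 0.33 without d4 Nr6a1-/- replicate 1). The balance of the d4 calls turned on 1 library. Of the nuclear members, 12 were higher and 6 lower, but without d4 Nr6a1-/- replicate 1, 9 were higher and 22 lower, and the median moved from 0.01 to -0.10. Without d4 wildtype replicate 2, 9 were higher and 5 lower. The shares of all tested genes called in these fits are not given here.

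From d2 to d3, the first day with CHIR99021, nuclear members were called higher at a share near that of all tested genes. In wildtype cells 14 of 86 rose (16.3%) and 6 fell, against 19.6% and 17.8% of all tested genes. Among Nr6a1-/- cells 18 rose (20.9%) and 4 fell, against 16.6% and 15.1%. Leaving out d3 Nr6a1-/- replicate 1 gave 11 calls in place of 22, and without scaling factors wildtype cells gave 38 member calls in place of 24. Cox6b2, the testis isoform of complex IV subunit 6B, rose most in wildtype, from 77.2, 62.2 and 67.3 CPM to 141, 132 and 143 (log2 fold change 1.01, SE 0.126, edgeR FDR 5.06e-08), and in Nr6a1-/- cells from 71.0, 62.1 and 65.5 to 109, 101 and 109 (0.69, edgeR FDR 5.03e-05). At d3 it was lower in Nr6a1-/- cells (-0.38, edgeR FDR 0.0336), a call lost without 5 of the 6 libraries in turn, d3 wildtype replicate 2 being the exception. Cox7c went the other way in wildtype, from 1665, 1670 and 1637 to 1036, 1009 and 992 CPM (-0.71, SE 0.085, edgeR FDR 2.03e-08), and fell in Nr6a1-/- cells too (-0.44, edgeR FDR 1.03e-04). The assembly factor Ndufaf3 fell in both (-0.51 and -0.73, edgeR FDR 0.00615 and 1.1e-04). Ndufb4 (0.63, edgeR FDR 5.3e-06) and Ndufs4 (0.48, edgeR FDR 7.46e-06) rose in Nr6a1-/- cells.

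Of the 8 mitochondrial members, 4 were called lower over the same day in wildtype cells, against 17.8% of all tested genes. mt-Co1 went from 476, 526 and 473 to 345, 273 and 312 CPM (-0.66, edgeR FDR 5.2e-05), mt-Nd5 from 355, 417 and 473 to 275, 239 and 300 (-0.61, edgeR FDR 0.0017), and mt-Nd4 from 1863, 1859 and 1713 to 1561, 1470 and 1480 (-0.27, edgeR FDR 9.97e-04). mt-Cytb fell by 0.20 (edgeR FDR 0.0403), a call lost without any 1 of the 6 libraries. The median of the 8 was -0.28 in wildtype and -0.12 in Nr6a1-/- cells, where mt-Co1 stood at 469, 384 and 369 CPM at d2 and 355, 279 and 381 at d3, with overlap. The interaction was passed by 2 members, Ndufaf4 (0.53, edgeR FDR 0.0242) and Ndufs4 (0.40, edgeR FDR 0.0465), against 2.27% of all tested genes. The Ndufaf4 interaction was lost without d2 wildtype replicate 3, d2 Nr6a1-/- replicate 1, any 1 of the d3 wildtype libraries, or d3 Nr6a1-/- replicate 1 or 2, and that of Ndufs4 in 11 of 12 such fits, d3 Nr6a1-/- replicate 3 being the exception.

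From d3 to d4 without Gdf11, mitochondrial members rose again. In wildtype cells 4 of the 8 rose, against 9.79% of tested genes that rose and 11.3% that fell. mt-Nd1 went from 3511, 3351 and 3464 to 4337, 4171 and 4166 CPM (0.30, edgeR FDR 7.04e-04), mt-Nd4 from 1561, 1470 and 1480 to 1846, 1937 and 1913 (0.34, edgeR FDR 1.46e-04) and mt-Cytb from 3985, 3876 and 3849 to 4970, 4757 and 4815 (0.31, edgeR FDR 0.00381), each with no overlap. mt-Nd3 was the fourth (1.23, edgeR FDR 0.00139). Of the nuclear members, 6 rose and 5 fell. Cox6b2 returned to 74.0, 65.6 and 78.7 CPM (-0.93, SE 0.122, edgeR FDR 3.34e-07), and Ndufs4 (-0.28, edgeR FDR 0.0092) and Ndufa12 (-0.32, edgeR FDR 7.66e-04) fell, the Ndufs4 call being lost without d3 wildtype replicate 1. In Nr6a1-/- cells 9 nuclear members rose and 9 fell, with 5 mitochondrial rises and 1 fall, against 13.6% and 12.3% of tested genes. Without d4 Nr6a1-/- replicate 1, 8 nuclear members rose and 24 fell, and 3 mitochondrial members rose and 2 fell. The shares of all tested genes called in that fit are not given here. Sdhc rose in both fits (0.52 and 0.47, edgeR FDR 1.04e-04 and 0.00117).

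The change from d3 to d4 differed between genotypes for 5 members, against 5.72% of all tested genes. Beside Ndufaf4 these were Ndufa12 (0.46, edgeR FDR 0.00248), Ndufaf2 (-0.47, edgeR FDR 0.0322), mt-Nd1 (-0.42, edgeR FDR 0.00263) and mt-Nd3 (-2.49, edgeR FDR 5.12e-04). Ndufaf2, a complex I assembly factor, was at 104, 111 and 108 CPM in wildtype d3 and 151, 137 and 142 in d4, and at 128, 118 and 127 and then 138, 110 and 107 in Nr6a1-/- cells. Its call was lost without any 1 of 7 of the 12 libraries, whereas those of Ndufa12, mt-Nd1 and mt-Nd3 held without any 1 of them. Without d4 Nr6a1-/- replicate 1, 20 members passed, 16 of the 17 nuclear ones towards lower values, with 0.46 for Ndufa12, -0.62 for Ndufaf2, -0.51 for mt-Nd1 and -3.60 for mt-Nd3. The share of all tested genes that passed in that fit is not given here.

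Genes that regulate, assemble or feed the chain were read from lists, of which members were left out. Among 11 tested regulators, 5 fell and 1 rose in wildtype from d2 to d3, against 17.8% and 19.6% of all tested genes. Myc (-0.79), Gabpb1 (-0.62), Hcfc1 (-0.60), Nrf1 (-0.48) and Yy1 (-0.42) fell, and Esrrb rose (1.28; edgeR FDR 3.2e-04 for Gabpb1, 0.00267 for Nrf1, 0.0113 for Yy1 and 0.00956 for Esrrb). Yy1 lies outside the naming rule and was chosen after its values were seen. Letters read by NRF1, YY1, GABPA and the ERR receptors, to which Esrrb belongs, were counted in the promoters above. The part of these regulators in the levels of the members was not tested. With Gdf11 in wildtype cells, Myc fell (-0.998, edgeR FDR 4.66e-04) and Gabpb1 rose (0.31, edgeR FDR 0.0493). Of 20 tested genes that copy, transcribe or process mitochondrial DNA and RNA, 7 fell and 1 rose with Gdf11 in wildtype, with a median of -0.17, against 14.5% and 14.3% of all tested genes. They included Tfam, which packages mitochondrial DNA (-0.42, edgeR FDR 0.00212), and the single-strand binding protein gene Ssbp1 (-0.55, edgeR FDR 1.7e-05). In Nr6a1-/- cells 2 fell, against 9.59% of all tested genes, Ssbp1 among them (-0.47, edgeR FDR 3.61e-04; -0.40 without d4 Nr6a1-/- replicate 1).

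Assembly factors and carriers were mixed in wildtype cells given Gdf11, for which 14.5% of all tested genes fell and 14.3% rose. Of 7 tested assembly factors of complex I, 2 fell and 1 rose (median 0.02), and of 6 of complex III, 1 fell and 1 rose (median -0.21), while the 4 of complex II had a median of -0.21. Of 16 tested factors of complex IV, 5 fell, among them Cox17, the copper chaperone (-0.38, edgeR FDR 0.00242), and Surf1 (-0.63, edgeR FDR 9.97e-04). Of 5 genes listed for assembly or inhibition of ATP synthase, 2 fell. That list also holds Foxred1, an assembly factor of complex I that stands in the complex I list too. Atpif1, the inhibitor, fell in both genotypes (-0.43 and -0.34, edgeR FDR 5.56e-06 and 2.71e-04). Of 18 electron carriers and genes of ubiquinone synthesis, 5 fell, including cytochrome c itself (Cycs, -0.42, edgeR FDR 0.00167), and 2 rose, Etfa (0.57) and Etfdh (0.69), which feed electrons from fatty acid oxidation. Of 11 carriers and membrane proteins, 4 fell, including the phosphate carrier Slc25a3 (-0.54) and the ADP/ATP exchanger Slc25a5 (-0.42). The TCA cycle was split, with 4 of 14 lower and 3 higher in wildtype, and 5 lower in Nr6a1-/- cells (4 without d4 Nr6a1-/- replicate 1), where 9.59% of all tested genes fell.

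Between genotypes these lists gave few calls outside 2 groups. Of the 14 TCA cycle genes, 5 were higher in Nr6a1-/- cells at d4, with a median of 0.11, against 9.72% of all tested genes, among them Idh3a (0.72, edgeR FDR 6.03e-07), Sucla2 (0.45), Idh2 (0.40) and Cs (0.36). Without d4 Nr6a1-/- replicate 1, 5 were higher and 2 lower, with 0.76 for Idh3a, 0.60 for Sucla2, 0.35 for Idh2 and 0.45 for Cs. Idh3a was also higher at d3 (0.64, edgeR FDR 7.76e-06) and d4G (0.36, edgeR FDR 0.0201). Etfa was higher at d4 (1.03, edgeR FDR 3.89e-11; 1.11 without that replicate). The other group was chromosome 8 again, with Slc25a4, the ADP/ATP exchanger of muscle and heart, lower at all 5 stages (-0.67, -0.57, -0.55, -1.10 and -0.49, with -1.15 at d4 without that replicate), and Tomm20, Dhodh, Coq9 or Coa6 lower at some.

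The genes whose mean log2 level over the 10 groups was most like the mean of the nuclear members, among 12055 other tested genes, were Trappc1 (Pearson r 0.973), Gm11249 (0.948), Timm10b (0.946), 1110059E24Rik (0.943) and Timm8b (0.936). Timm10b and Timm8b take part in protein import into the mitochondrion. Those most like the mitochondrial mean were Gm4204 (0.936), Nop56 (0.914), Gm5981 (0.912), Lin52 (0.872) and AC124426.1 (0.865). As a mean of log2 levels, the mitochondrial mean gives the low mt-Nd3 the same weight as mt-Cytb. It went from 0.18 in wildtype d4 to -0.16 in wildtype d4G, whereas the mitochondrial share of counts rose there. These correlations are a description over 10 group means that share libraries and depth.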

How the data were processed

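RNA of 30 libraries was read from the 3′ end after poly(A) priming, with an index and a molecular identifier in each read. The values used are whole-number counts per gene as deposited by the authors, whose processing notes name STAR, edgeR and mm10. Versions, annotation, counting tool, use of strand and whether identifiers were collapsed are not given in the sources used here, and intervals and floors were not derived. Tables of the authors' own comparisons (fold changes and p-values) were not used, and 0 columns of samples were left unmapped. Library totals were 1570714 to 3688197 counts, which limits precision most for mt-Nd3 and other low members.

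A gene was tested if 2 or more libraries of any 1 group had over 10 counts and over 2 CPM for it, which left 12149 and dropped 41985, and edgeR 4.0.16 in R 4.3.3 fitted a quasi-likelihood model of 10 groups with TMM factors and 20 residual degrees of freedom, tested on simulated data first. FDR is the Benjamini-Hochberg adjusted p over all genes tested, called below 0.05, and SE is the log2 fold change divided by the root of F. Shares are percentages of a library's raw counts. DESeq2 1.42.0, other scalings, other filters, thinned counts and leaving out libraries were alternatives.

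The members and lists were chosen with earlier results of these data known. Genes named are all mitochondrial members, the Sdh genes, tissue isoforms, members on chromosome 8 and, per comparison, up to 8 called members with the highest and 8 with the lowest change at 20 CPM or more, with up to 4 of each in the lists. Other called members named lie outside that rule and were chosen after their values were seen. Coordinates are GENCODE vM21 (GRCm38), which placed 94 of 94 members.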

Additional observations from a re-analysis of the deposited data

Results flagged for a closer look

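The change between stages differed between Nr6a1-/- and wildtype cells, by the interaction term of edgeR at an FDR below 0.05, for 11 pairs of member and step, each given as the Nr6a1-/- change minus the wildtype change on the log2 scale. From d2 to d3 these were Ndufaf4 (0.53) and Ndufs4 (0.40). From d3 to d4 they were Ndufaf4 (-1.04), Ndufa12 (0.46), Ndufaf2 (-0.475), mt-Nd1 (-0.42) and mt-Nd3 (-2.49). From d4 to d4G they were Ndufaf4 (0.50), Cox6b1 (0.46), Ndufa12 (-0.52) and mt-Nd1 (0.35). The d2 to d3 and d3 to d4 steps share the d3 libraries, and the d3 to d4 and d4 to d4G steps the d4 libraries. A member that appears in neighbouring steps with opposite signs is therefore not seen independently.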

How the results depend on the processing

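The 314 results for single genes had no call that turned in direction under the alternatives run, with 3696 values on the same side of the threshold, 728 that lost and 50 that gained a call. Of the summary values, 651 stayed and 110 moved. With members on chromosome 8 left out, members called became 0 (Nr6a1-/- against wildtype at d2), 3 (Nr6a1-/- against wildtype at d2.5), 4 (Nr6a1-/- against wildtype at d3). With no filter, median log2 fold change of nuclear members became 0.117 (Nr6a1-/- against wildtype at d2.5), 0.0857 (wildtype d4 over d3) and members called became 5 (Nr6a1-/- against wildtype at d4G), 0 (genotype difference in d3 over d2), 2 (genotype difference in d4G over d4). With thinned counts, members called became 3 (Nr6a1-/- against wildtype at d2.5), 13 (Nr6a1-/- against wildtype at d4), 15 (wildtype d3 over d2), 0 (genotype difference in d3 over d2), 2 (genotype difference in d4G over d4). With no scaling factors, members called became 11 (Nr6a1-/- against wildtype at d3), 38 (wildtype d3 over d2), 8 (genotype difference in d4 over d3) and median log2 fold change of nuclear members became 0.086 (Nr6a1-/- against wildtype at d4G), 0.113 (wildtype d3 over d2), 0.0119 (wildtype d4 over d3), -0.159 (wildtype d4G over d4). With only the libraries compared, members called became 7 (Nr6a1-/- against wildtype at d4), 19 (Nr6a1-/- against wildtype at d4G), 25 (wildtype d4 over d3), 7 (Nr6a1-/- d4 over d3), 7 (Nr6a1-/- d4G over d4), 2 (genotype difference in d4 over d3), 1 (genotype difference in d4G over d4). With mt rows left out, nuclear members called became 6 (Nr6a1-/- against wildtype at d4G), 1 (genotype difference in d3 over d2). With RLE factors, members called became 1 (genotype difference in d3 over d2). With DESeq2, members called became 1 (genotype difference in d3 over d2). With members with near-identical copies left out, members called became 3 (genotype difference in d4 over d3). With rows other than mt rows as denominator, share of counts on nuclear members became 3.31 (d2 wildtype), 3.33 (d2 Nr6a1-/-), 3.25 (d2.5 wildtype), 3.36 (d2.5 Nr6a1-/-), 3.53 (d3 wildtype), 3.58 (d4 wildtype), 3.19 (d4G wildtype), 3.38 (d4G Nr6a1-/-) and share of counts on mitochondrial members became 1.23 (d2 wildtype), 1.2 (d2 Nr6a1-/-), 1.16 (d2.5 wildtype), 1.16 (d2.5 Nr6a1-/-), 1.11 (d3 wildtype), 1.33 (d4 wildtype), 1.58 (d4G wildtype). With mt-Cytb left out of the sum, share of counts on mitochondrial members became 0.749 (d2 wildtype), 0.737 (d2 Nr6a1-/-), 0.704 (d2.5 wildtype), 0.706 (d2.5 Nr6a1-/-), 0.675 (d3 wildtype), 0.764 (d3 Nr6a1-/-), 0.805 (d4 wildtype), 0.75 (d4 Nr6a1-/-), 0.791 (d4G wildtype), 0.874 (d4G Nr6a1-/-). Leaving out 1 library at a time, members called ran over 3 to 5 (Nr6a1-/- against wildtype at d2.5), 5 to 11 (Nr6a1-/- against wildtype at d3), 14 to 35 (Nr6a1-/- against wildtype at d4), 1 to 7 (Nr6a1-/- against wildtype at d4G), 14 to 20 (wildtype d3 over d2), 11 to 29 (Nr6a1-/- d3 over d2), 12 to 37 (Nr6a1-/- d4 over d3), 18 to 37 (Nr6a1-/- d4G over d4), 0 to 3 (genotype difference in d3 over d2), 4 to 20 (genotype difference in d4 over d3), 1 to 22 (genotype difference in d4G over d4). Leaving out 1 library at a time, median log2 fold change of nuclear members ran over 0.0515 to 0.105 (Nr6a1-/- against wildtype at d2.5), -0.101 to 0.0496 (Nr6a1-/- against wildtype at d4), 0.0189 to 0.0673 (wildtype d3 over d2), 0.027 to 0.0737 (wildtype d4 over d3), -0.111 to 0.0503 (genotype difference in d4 over d3), 0.0293 to 0.193 (genotype difference in d4G over d4). Leaving out 1 library at a time, median log2 fold change of mitochondrial members ran over 0.0196 to 0.141 (Nr6a1-/- against wildtype at d4), 0.189 to 0.297 (Nr6a1-/- d4 over d3), -0.00809 to 0.247 (Nr6a1-/- d4G over d4), -0.127 to 0.0337 (genotype difference in d4 over d3), 0.127 to 0.34 (genotype difference in d4G over d4). Replicate numbers do not pair the libraries: deviations of same-numbered libraries had a mean correlation of 0.013 (-0.115 to 0.163, with 5 of 135 pairs over 0.1). With the replicate block, members called were 3 (Nr6a1-/- against wildtype at d2), 7 (Nr6a1-/- against wildtype at d2.5), 7 (Nr6a1-/- against wildtype at d3), 23 (Nr6a1-/- against wildtype at d4), 14 (Nr6a1-/- against wildtype at d4G), 27 (wildtype d3 over d2), 22 (Nr6a1-/- d3 over d2), 16 (wildtype d4 over d3), 25 (Nr6a1-/- d4 over d3), 55 (wildtype d4G over d4), 35 (Nr6a1-/- d4G over d4), 2 (genotype difference in d3 over d2), 5 (genotype difference in d4 over d3), 4 (genotype difference in d4G over d4). The cause of these moves was not tested. Depth limits mt-Nd3, with 3 to 49 counts a library at d4 and d4G, and genotype rests on 1 clone.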
